A study of Capsella orientalis and Capsella grandiflora with 23 samples.

Results

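SNPs that lie inside an annotated gene but outside every annotated exon were read in endosperm RNA of reciprocal crosses within 2 species of Capsella. A SNP was kept when its listing gave a gene and no exon and when it had at least 10 counts, maternal and paternal together, in each of the 2 directions of its cross pair. These conditions left 15004 SNPs out of 284470 listed in 4 tables, and out of 122947 non-exonic SNPs of genes at any depth. They lay at 14557 positions in 5240 genes. The same depth rule left 60071 SNPs in annotated exons, which serve as the comparison throughout.

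Messenger RNA is spliced before it leaves the nucleus, so poly(A)-selected libraries read mainly exons. Reads between or beside annotated exons can come from unspliced transcripts, retained introns, exons or UTRs that the annotation lacks, or other transcripts of the region. The deposited counts do not separate these sources, nor do they tell them from errors of alignment or SNP calling. The sources used here do not give how either step was done, and such errors were not tested. Endosperm nourishes the embryo and carries 2 maternal genomes and 1 paternal genome, so a gene expressed equally per genome copy gives a maternal share of 66.7%. Imprinted genes depart from that share towards the same parent in both directions of a reciprocal cross. A difference between accessions departs towards the mother in one direction and towards the father in the other.

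The RNA came from endosperm of 300 to 500 seeds per sample, collected 6 days after pollination. C. grandiflora (Cg) is an outcrossing species and was crossed among 4 accessions, in 2 reciprocal pairs. C. orientalis (Co) is self-fertilising and was crossed between 2 accessions, in 2 replicates of 1 reciprocal pair. No treatment is labelled. All Co samples and those of 1 Cg pair are labelled as sequencing run 1 or 2, and those of the other Cg pair carry no run label. Each of the 4 tables covers 1 pair and gives maternal and paternal allele counts in direction 1 and direction 2, so there were 4 cross directions per species. The columns name a parent and a direction but no sample, so no count was tied to a named accession. Genes carry an interval and no name in the tables, so no gene function is given and the endosperm label was not checked against marker genes. Per the labels, the 2 directions of a pair had mothers of different accessions and so different mother plants. Nothing says that libraries of the same cross and direction came from separate plants, and the spread between libraries may be partly technical.

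Depth was very uneven. Cg pair 1 supplied 13082 of the SNPs outside exons, Cg pair 2 651, Co pair 1 367 and Co pair 2 904. The median SNP outside exons had 28 counts in both directions of Cg pair 1, against 96 and 92 in exons. In Cg pair 2 it had 16 and 19 counts, against 19 and 24 in exons. In Co pair 1 the medians were 32 and 16 outside exons, against 48 and 23 in exons. In Co pair 2 they were 25 and 24.5 outside exons, against 41 and 43 in exons. A SNP outside exons was thus read less deeply than one in an exon in all 8 directions. SNPs outside exons held between 3.39% and 7.80% of the counts at kept SNPs. At SNPs of any depth, those outside exons held between 8.63% and 20.7% of all counts. In bulk RNA, fewer cells that express a transcript and less of it per cell cannot be told apart.

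Most of these SNPs sat inside the gene body. Taking as reference the exons that the tables list because they hold a SNP, 67.8% of the SNPs lay between listed exons of their gene, 28.0% lay on the outer side of the first or last one, and 4.15% were in genes with no listed exon. An exon without a SNP is not listed, so the true nearest exon can be closer. The median distance to a listed exon was 87 bases in Cg pair 1, 46.5 in Cg pair 2, 71 in Co pair 1 and 80 in Co pair 2. Of the genes, 2248 of 4835 in Cg pair 1 and 474 of 591 in Co pair 2 rested on a single such SNP.

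The classes differed in accession skew. For each SNP the share of 1 accession's allele was averaged over both directions, in which that allele is once maternal and once paternal. A SNP was called read from 1 accession only when that mean was at least 95% for either accession. Outside exons this held for 34.1% of SNPs in Cg pair 1 (95% Wilson interval 33.3% to 35%), against 3.29% in exons (3.12% to 3.47%). In Cg pair 2 it held for 62.1% outside exons (58.3% to 65.7%), against 11.5% in exons (10.9% to 12.1%). In Co pair 1 it was 50.7% outside exons (45.6% to 55.8%), against 4.28% in exons (3.61% to 5.09%). In Co pair 2 it was 50.8% outside exons (47.5% to 54.0%), against 6.42% in exons. The classes did not overlap, and the lowest share outside exons stood far above the highest share in exons. The mean difference over the 4 pairs was 43.0 percentage points ± 8.53 (SD, n = 4 pairs; exact sign-flip permutation test, two-sided, p = 0.12, the smallest value that 4 pairs allow). Such intervals cover counting error only, and reads without molecular identifiers are not independent molecules.

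Many of the skewed SNPs showed the other allele not once. Outside exons, 1765 of 4466 skewed SNPs in Cg pair 1 and 240 of 404 in Cg pair 2 had no read of the second accession in either direction. In Co it was 81 of 186 in pair 1 and 255 of 459 in pair 2. Among skewed exonic SNPs it was 574 of 1323 in Cg pair 1 and 941 of 1399 in Cg pair 2. In Co exons it was 46 of 124 in pair 1 and 140 of 311 in pair 2. A full lack of the other allele was thus common among skewed SNPs of both classes. In Cg pair 1 the skewed SNPs made up 45.0% and 44.9% of the counts outside exons in directions 1 and 2, against 1.77% and 1.89% of the counts in exons. The accession read was not always the same one. It was the mother's accession of direction 1 for 43.8% of skewed SNPs outside exons in Cg pair 1, 59.4% in Cg pair 2, 60.2% in Co pair 1 and 57.7% in Co pair 2. In exons these shares were 40.2% in Cg pair 1 and 3.5% in Cg pair 2, so the skewed exonic SNPs of Cg pair 2 came almost all from a single accession while those outside exons did not.

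Depth moved with the skew in opposite ways in the deepest pair. In Cg pair 1, SNPs outside exons with 10 to 14 counts in the shallower direction were read from 1 accession only in 25.5% of cases, and those with 100 or more counts in 58.6%. For exonic SNPs of the same pair the shares were 7.65% and 1.68%. The share outside exons was also higher at 100 or more counts than at 10 to 14 in the other pairs, at 64.1% against 44.9% in Co pair 2, 66.7% against 44.7% in Co pair 1 and 100% against 58.2% in Cg pair 2, where the deep bins held only 15 SNPs in Co pair 1 and 6 in Cg pair 2. In exons of Cg pair 2 it was 16.0% at 100 or more counts and 11.1% at 10 to 14. SNPs just below the depth rule, at 8 to 9 counts in the shallower direction, were read from 1 accession only in 21.2% of cases in Cg pair 1, and those just inside it, at 10 to 11 counts, in 26.8%. The shares just below and just inside the rule were 50.5% and 59.2% in Cg pair 2, 34.3% and 50% in Co pair 1, and 45.3% and 44.6% in Co pair 2.

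**Figure D1:**
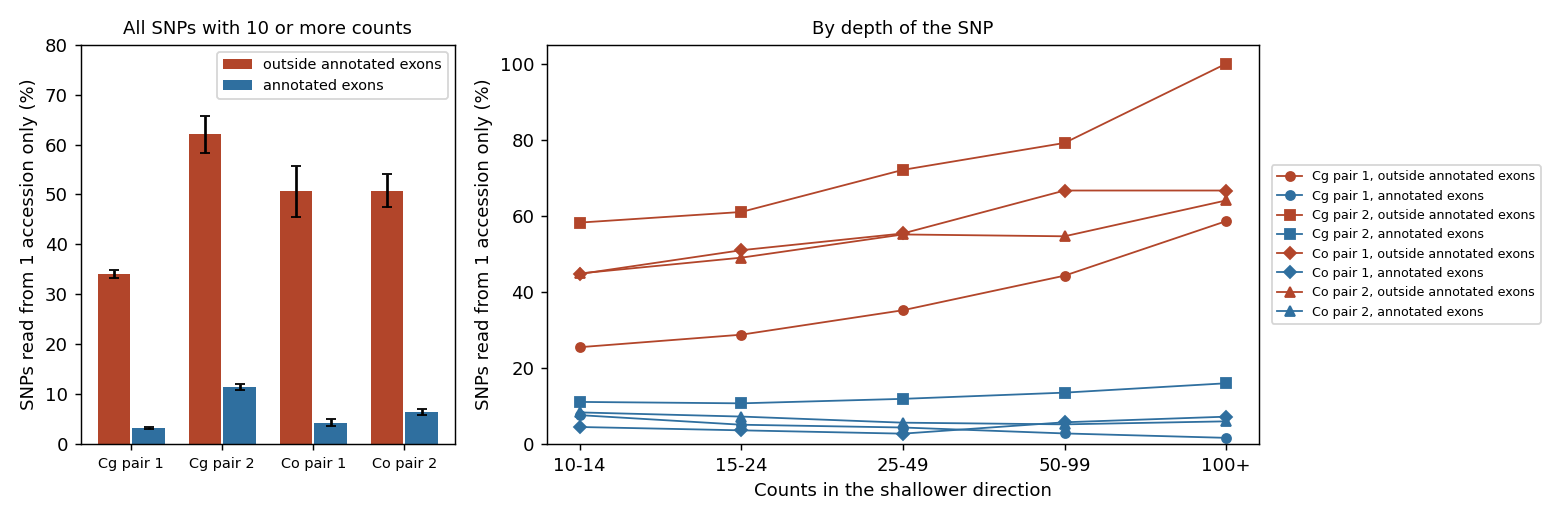
SNPs read from 1 accession only, as a percentage of SNPs with at least 10 counts per direction, in each cross pair (left, bars with 95% Wilson intervals) and by counts in the shallower direction (right, lines join the depth bins of 1 pair). All pairs stood between 34.1% and 62.1% outside exons, against 3.29% to 11.5% in exons, and in Cg pair 1 the share outside exons was 58.6% at 100 or more counts.

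The skew varied with the place of the SNP. Over all 4 pairs together, 51.3% of the SNPs at 1 to 10 bases from a listed exon were read from 1 accession only, 45.0% at 11 to 50 bases, 33.4% at 51 to 100 and 22.7% between 100 and 200 bases. Farther out the share was 28.8% between 200 and 500 bases and 34.9% beyond 500. These pooled values follow Cg pair 1, which supplied most of the SNPs. Within pairs, the bin of 100 to 200 bases had the lowest share in each of the 4, at 20.8% in Cg pair 1, 51.2% in Cg pair 2, 42.9% in Co pair 1 (35 SNPs) and 34.2% in Co pair 2. The bin nearest to an exon was the highest only in Cg pair 1. In the other pairs 11 to 50 bases was the highest distance bin or shared the highest value. In Co pair 2 it stood at 53.5%, beside 53.4% beyond 500 bases. SNPs of genes with no listed exon have no distance. They were skewed in 31.3% of cases in Cg pair 1 and 61.5% in Cg pair 2. In Co their shares, 72.2% of 18 SNPs in pair 1 and 63.8% of 47 in pair 2, stood above all distance bins. Over all 4 pairs together, SNPs between listed exons were skewed in 38.7% of cases and SNPs on the flanks in 32.1%.

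Neighbouring SNPs can be read by the same fragment and are not independent. Of SNPs next to each other within 50 bases and both read from 1 accession, 668 of 732 in Cg pair 1 were read from the same one (91.3%). The shares were 78.3% of 46 such neighbours in Cg pair 2, 54.5% of 22 in Co pair 1 and 61.0% of 41 in Co pair 2. Such neighbours mostly pointed to the same accession in Cg, while in Co a large part pointed to different ones.

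**Figure D2:**
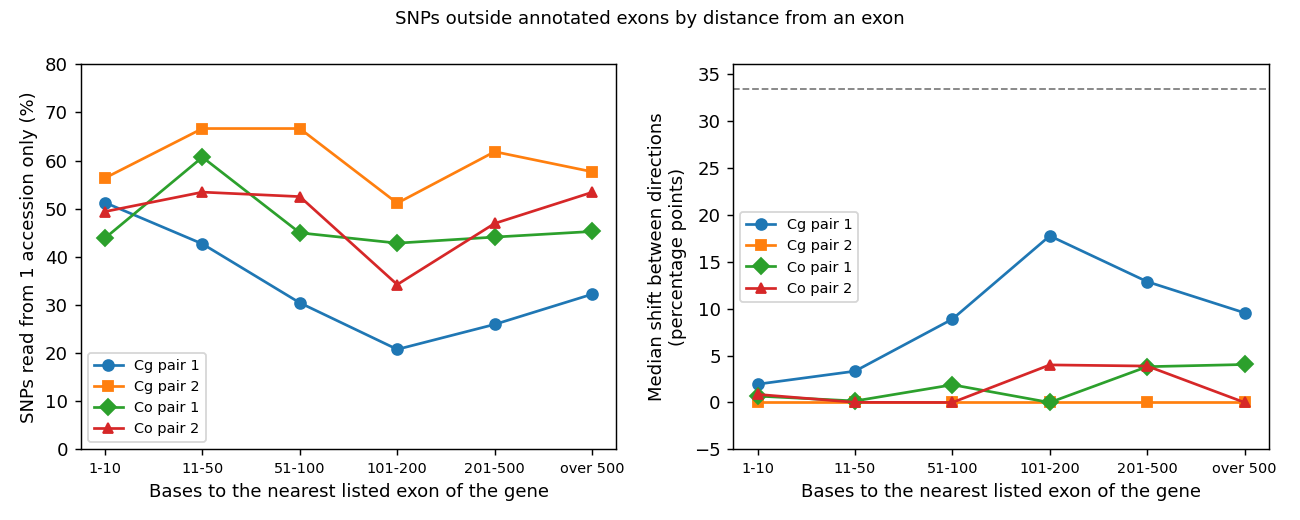
SNPs outside annotated exons by distance to the nearest listed exon of their gene, with the percentage read from 1 accession only (left) and the median shift of an allele's share between directions (right, dashed line at the 33.3 points that the endosperm dosage gives). Each line is 1 cross pair, and the bin of 100 to 200 bases had the lowest left-hand value in all 4 pairs.

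The 2 Co pairs repeat the same cross, so the skew could be compared between them. Of the 367 SNPs of Co pair 1, 355 were also kept in Co pair 2 (96.7% and 39.3% of each list). The accession share of these SNPs correlated at r = 0.96 and rho = 0.93 across SNPs, given as a description since SNPs are not replicates. Among these 355 SNPs, 182 were read from 1 accession only in pair 1 and 195 in pair 2, out of 186 and 459 skewed SNPs in each pair as a whole. The 355 included 160 that were skewed in both pairs (87.9% of the 182 and 82.1% of the 195), and all 160 were read from the same accession in both. The 2825 exonic SNPs kept in both Co pairs correlated at r = 0.72 and rho = 0.50. They included 103 that were skewed in both pairs (86.6% of 119 in pair 1 and 61.7% of 167 in pair 2). All 103 were also read from the same accession in both. The skew of a position was thus mostly repeated in libraries of the same accessions, outside exons and in exons. The Cg pairs cross different accessions and shared 79 SNPs outside exons, with r = 0.21 and rho = 0.23. Direction 1 involves different accessions in these pairs, so the sign of the accession share has no shared meaning there. Of the 79 SNPs, 50 were read from 1 accession only in each pair, and 35 in both (70.0% of each 50). The Cg pairs shared 970 exonic SNPs, of which 14 were skewed in pair 1, 73 in pair 2 and 6 in both.

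An allele's share was also compared between reciprocal directions. The shift is the share of an allele as the maternal one in direction 1 minus its share as the paternal one in direction 2, which is 33.3 percentage points at the endosperm dosage and 0 when the share does not depend on the parent. Outside exons the median shift was 6.90 points in Cg pair 1, 0 in Cg pair 2, 1.15 in Co pair 1 and 0.70 in Co pair 2. In exons it was 31.4, 22.5, 30.2 and 35 points in the same order of pairs. The classes differed by -27.6 points ± 5.22 on average (SD, n = 4 pairs; exact sign-flip permutation test, two-sided, p = 0.12, the smallest possible), in a test added after the data were seen. A SNP read from 1 accession only has a shift near 0 by construction. Without these SNPs, which are chosen by their measured share, the median shift outside exons was 18.2, 12.5, 12.5 and 14.3 points, against 31.8, 26.8, 31.7 and 36.1 points in exons. A skew that stays below 95% lowers the shift by arithmetic too, and the SNPs left outside exons can still be more skewed than those in exons. A smaller parental effect and stronger accession skew cannot be told apart in the shift.

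**Figure D3:**
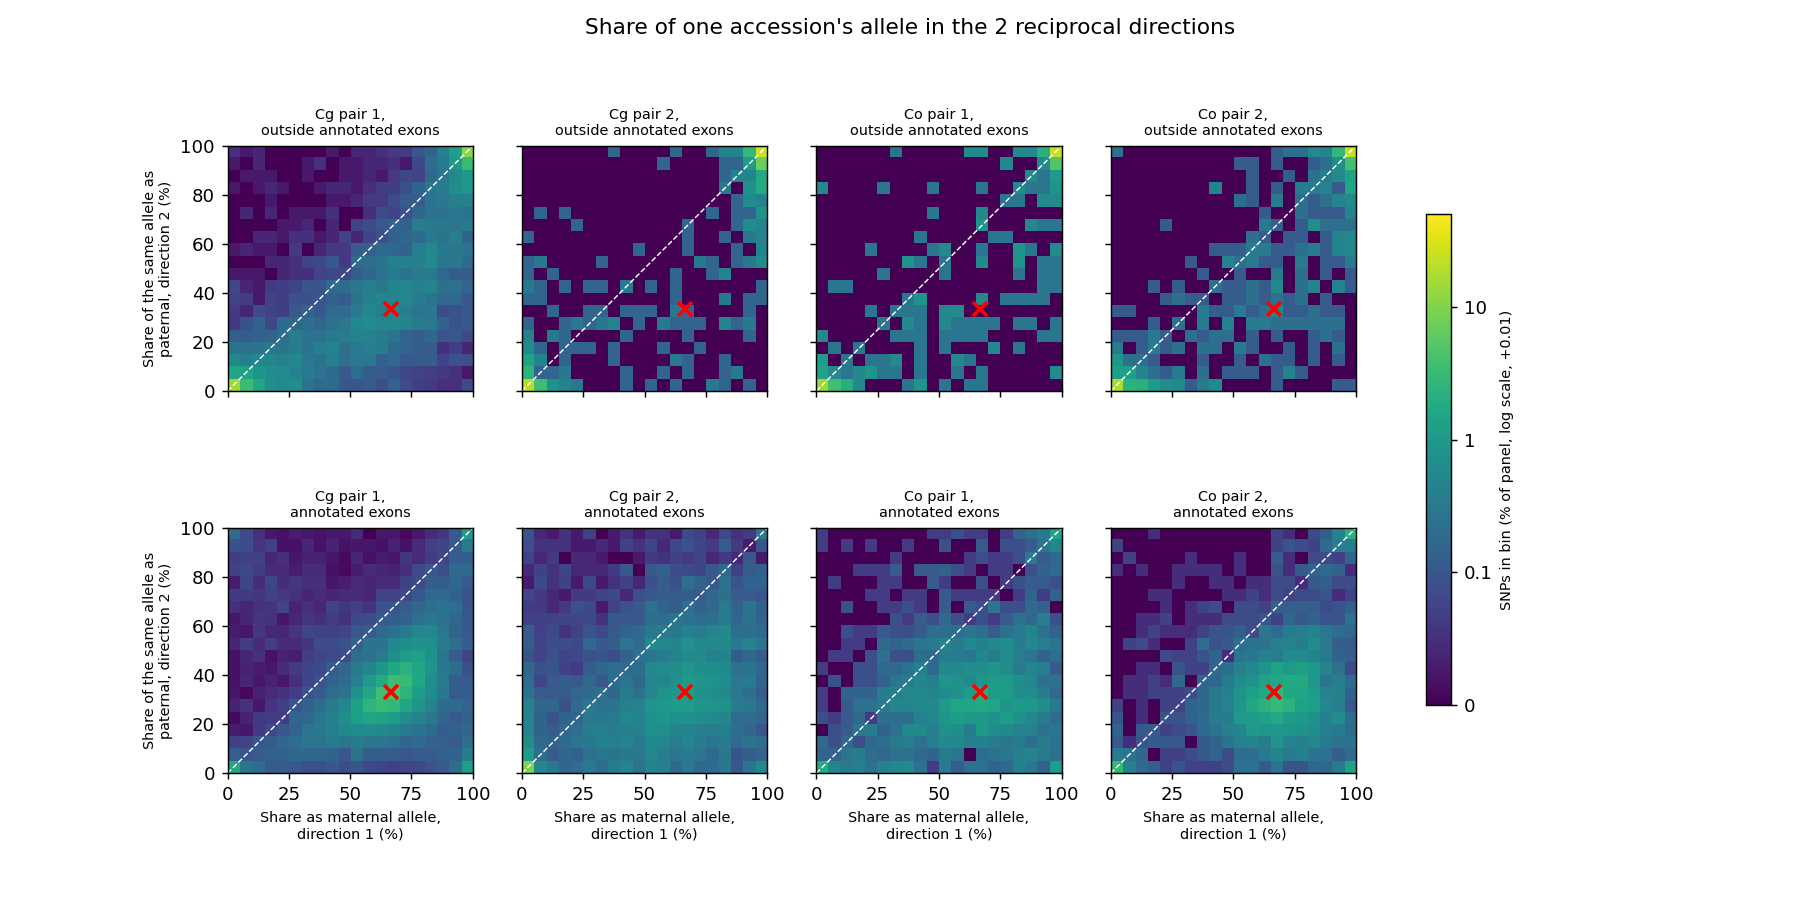
Share of an accession's allele as the maternal allele of direction 1 (horizontal axis, percent) against its share as the paternal allele of direction 2 (vertical axis, percent), for SNPs outside exons (upper row) and in exons (lower row) of each pair. Colour gives the percentage of SNPs per bin on a log scale, the red cross marks the endosperm dosage and the dashed line an equal share in both directions. SNPs outside exons crowd into the corners where a single accession is read. Exonic SNPs gather around the dosage in Cg pair 1 and both Co pairs, while in Cg pair 2 their fullest bin is the lower left corner, with 9.55% of SNPs.

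Maternal shares of the summed counts outside exons moved widely between the 2 directions of a pair. They were 51.8% and 60.2% in directions 1 and 2 of Cg pair 1, against 64.9% and 66.1% in exons. In Cg pair 2 they were 59.3% and 44.4% outside exons, against 51.6% and 71.1% in exons. In Co pair 1 they were 66.8% and 37.5% outside exons, against 64.5% and 66.3% in exons. In Co pair 2 they were 64.4% and 44.0% outside exons, against 66.8% and 66.7% in exons. The share outside exons was the lower one in 6 of 8 directions, and higher in direction 1 of Cg pair 2 and of Co pair 1. The mean difference was -11.2 points ± 13.8 (SD, n = 8 directions; exact sign-flip permutation test, two-sided, p = 0.070), which did not pass 0.05.

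The 2 directions of a pair read the same SNPs with the parents exchanged, so the difference was also averaged within pairs. Over pair means it was again -11.2 points, with an SD of 1.99 and a lower value outside exons in 4 of 4 pairs (exact sign-flip permutation test, two-sided, p = 0.12, the smallest possible). Without SNPs read from 1 accession only it was -7.90 points ± 5.09, lower in 7 of 8 directions (exact sign-flip permutation test, two-sided, p = 0.016). In genes with both classes of SNP it was -11.4 points (exact permutation p = 0.016), and as a median over genes -7.64 points ± 21.0 (exact permutation p = 0.30). The exact permutation tests with p = 0.016 treat the 8 directions as separate. Over 4 pair means this exact test cannot go below 0.12, so neither would pass 0.05. An allele with the same share in both directions gives, by arithmetic, a mean maternal share of 50% whichever accession it belongs to. In these sums such skew and a paternal preference cannot be told apart.

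**Figure D4:**
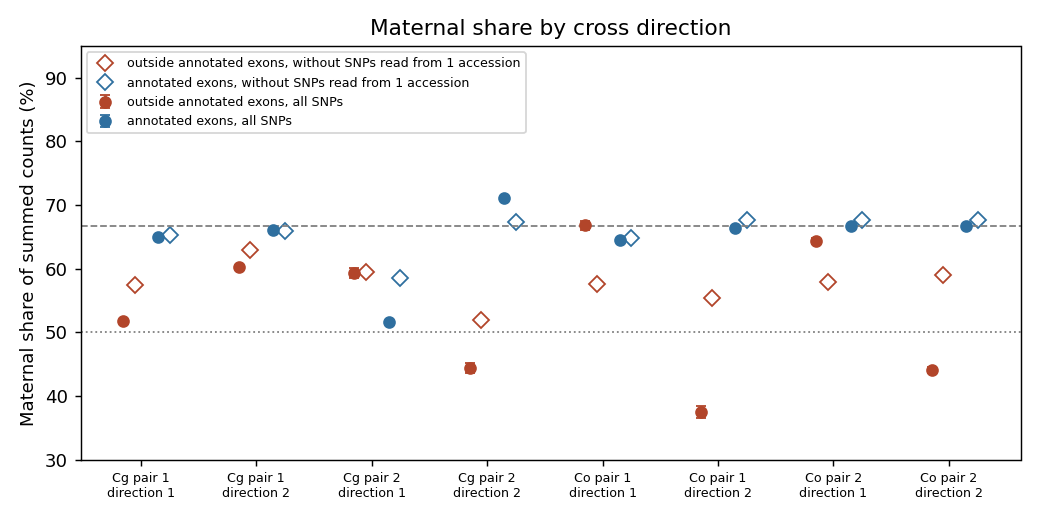
Maternal share of summed counts (percent) in each cross direction, outside exons and in exons, with 95% Wilson intervals (filled) and without SNPs read from 1 accession only (open). The dashed line is the endosperm dosage of 66.7% and the dotted line equal parents at 50%; outside exons the filled points range from 37.5% to 66.8%, against 51.6% to 71.1% in exons.

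Genes that have both classes of SNP allowed a direct comparison. The mean depth per SNP outside exons, divided by that per SNP in exons of the same gene, had a median of 0.179 over 3784 genes in Cg pair 1, 0.494 over 337 genes in Cg pair 2, 0.449 over 103 in Co pair 1 and 0.384 over 234 in Co pair 2. In Cg pair 1 the ratio was below 0.1 in 26.7% of genes and at least 1 in 5.39%. The depth rule leaves out poorly read SNPs, so in shallow pairs it favours high ratios.

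In some genes the SNPs outside exons were the deeper ones. The highest ratio of Co pair 2, 18.1, was at scaffold 4:13840543-13843260 (+ strand), with 1150 and 1612 counts at 5 SNPs outside exons, against 43 and 79 counts at 4 exonic SNPs. In Cg pair 1 the highest ratio, 7.56, was at scaffold 7:716048-717591 (- strand), with 475 and 749 counts at 3 SNPs outside exons, against 22 and 32 counts at 1 exonic SNP. Its maternal share outside exons was 6.74% in direction 1 and 95.5% in direction 2, against 63.6% and 84.4% in the exon. The Co gene stayed near the dosage outside exons in both directions of pair 2, at 67.6% and 69.7%, and the Cg gene followed 1 accession.

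Agreement between the classes within a gene was poor. Among genes with at least 20 counts in both classes and both directions, the maternal share outside exons correlated with the exonic share at r = 0.11 in each direction of Cg pair 1 (2890 genes). It correlated at r = -0.05 and -0.04 in Cg pair 2 (151 genes), 0.23 and -0.24 in Co pair 1 (48 genes) and 0.07 and -0.11 in Co pair 2 (150 genes). These are descriptions across genes, which are not replicates and share libraries. The median absolute difference between the classes ran from 17.2 to 34.5 points over the 8 directions. The difference was over 25 points in 35.4% of genes in direction 1 of Co pair 1, the lowest share of the 8 directions, and in 69.5% in direction 1 of Cg pair 2, the highest.

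The accession share showed where the classes parted. It correlated between the classes at r = 0.10, -0.06, -0.06 and -0.02 in Cg pair 1, Cg pair 2, Co pair 1 and Co pair 2. In Cg pair 1, 700 of the 2890 genes (24.2%) were read from 1 accession only outside exons, against 31 (1.07%) in exons. Of those 700, 674 had an exonic accession share between 25% and 75%, and 8 were skewed in both classes. The numbers were 58 of 65 in Cg pair 2, 12 of 12 in Co pair 1 and 46 of 53 in Co pair 2. Most genes whose SNPs outside exons showed a single accession were thus read from both accessions in their exons. That is the usual state of exons and not particular to these genes. Of all exonic SNPs, 89.2%, 73.3%, 83.0% and 86.6% had an accession share between 25% and 75%, in the same order of pairs. Of the few genes skewed in exons, those also skewed outside them were 8 of 31, 0 of 4, 0 of 1 and 5 of 8 in that order.

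**Figure D5:**
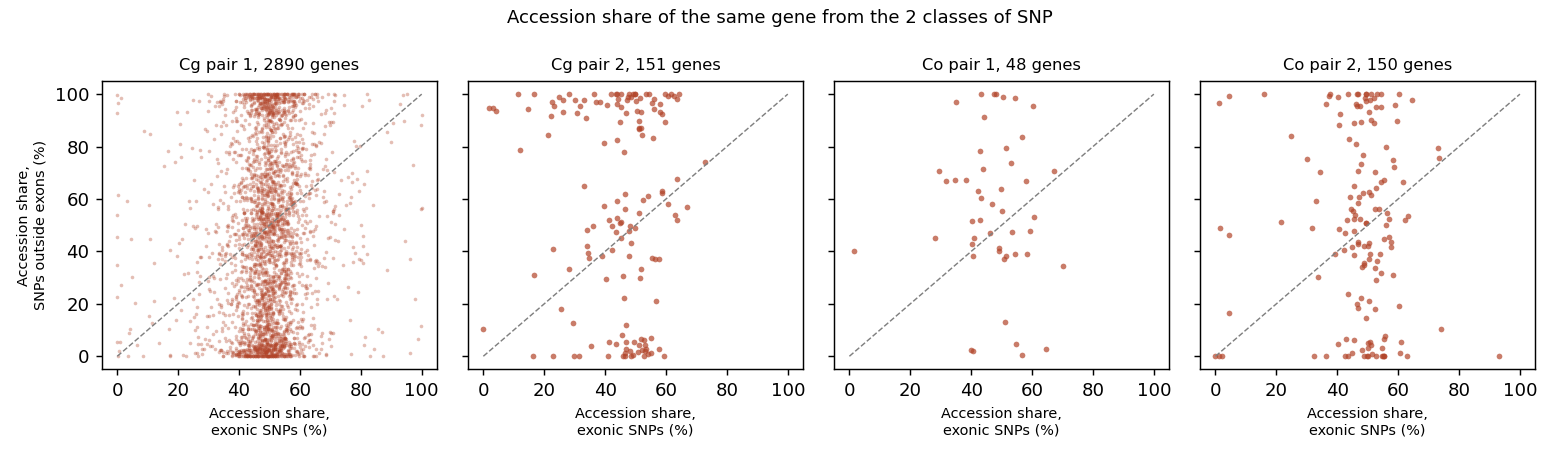
Accession share (percent of the allele that is maternal in direction 1, mean of both directions) of genes with at least 20 counts per direction in both classes, from SNPs outside exons (vertical axis) and in exons (horizontal axis). Each point is 1 gene and the dashed line marks equal shares; exonic shares gather near the middle while shares outside exons spread over the whole range, with 700 of 2890 genes of Cg pair 1 read from 1 accession.

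Counts were then summed per gene and class, and parental and accession effects were fitted with edgeR's quasi-likelihood test over units with at least 20 counts in every direction. A unit is 1 gene in 1 class. The log2 deviation is the maternal to paternal ratio relative to the dosage, so 0 is the dosage, negative values are called paternal and -1 is an equal share of both parents. An allele with the same share in both directions also gives -1, so a negative value alone does not separate a paternal preference from accession skew. In Cg 140 units outside exons and 2433 exonic units could be fitted, and in Co 120 and 1070. The fit left 1 residual degree of freedom per unit, and the spread was moderated across units. A fit without 1 direction also drops the accession term of its pair, so it changes the model as well as the data.

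Accession skew was called in most units outside exons. In Cg 114 of 140 were called at an edgeR adjusted p under 0.05 (81.4%), against 585 of 2433 exonic units (24%) and a background of 27.2% over all units. In Co 89 of 120 were called (74.2%), against 242 of 1070 in exons (22.6%) and a background of 27.8%. In genes with both classes, a difference between the classes in accession skew was tested directly, in a test added after the data were seen. It passed in 83 of 90 Cg genes (92.2%) and 30 of 48 Co genes (62.5%). The call counts depended on the directions and terms in the fit. Leaving out a direction of Cg pair 2, or any Co direction, left 0 units called for skew outside exons. Without direction 1 or 2 of Cg pair 1 the Cg count was 64 or 45. Such fits also lack the accession term of that pair, so lost calls cannot be laid to the missing direction alone. With no replicate block it was 5.

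The most deeply read unit of each species was read almost wholly from 1 accession, while other deep units varied. The gene at scaffold 1:2492523-2494113 (- strand), the most deeply read of Cg, gave maternal shares of 96.4% of 4054 counts and 3.88% of 3996 in pair 1, and 98.5% of 136 and 1.24% of 323 in pair 2. Its 2 SNPs of pair 1, at 2493031 and 2493029, lie 5 and 7 bases from a listed exon, and the first is also the deepest of pair 2. The accession that is the mother in direction 1 supplied nearly all reads in both pairs (edgeR adjusted p = 3.38e-07). Its parental deviation of -0.98 ± 0.26 (SE, n = 4 directions) did not pass (edgeR adjusted p = 0.064).

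The other deep Cg units were of the same kind in at least 1 pair. The gene at scaffold 7:9104042-9105847 (+ strand) had maternal shares of 86.4% and 19.0% in pair 1, and 97.1% and 1.35% in pair 2. A further deep gene, at scaffold 6:9917932-9919311 (- strand), had 53.2% and 38% over 10 SNPs in pair 1. In pair 2 its 2 SNPs gave 21 of 21 and 0 of 30 maternal counts, where a count of 0 of 30 allows up to 10.0%. The SNPs of pair 2 were thus read from 1 accession only, while the sum of pair 1 held both alleles. Skew was tested over both pairs together and not for pair 1 alone.

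In Co the deepest unit was at scaffold 151:4754-7209 (+ strand), a gene with no listed exon. Its maternal shares were 99.9% of 2408 counts and 0.148% of 1347 in pair 1, and 2696 of 2697 counts and 0.055% of 1817 in pair 2. A unit named for its strong accession skew, at scaffold 3:5783908-5785719 (- strand), rested on 1 SNP at 5784914, which lies 549 bases beyond a listed exon. Its maternal counts were 513 of 513 and 0 of 458 in pair 1 (up to 0.655% allowed), and 899 of 901 and 1 of 793 in pair 2 (edgeR adjusted p for accession 2.2e-174). Both genes were read from 1 accession in all 4 directions.

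Other deep Co units carried both alleles. The gene at scaffold 6:6613367-6615899 (- strand) had maternal shares of 56.3% and 45.3% in pair 1, and 57.1% and 44.6% in pair 2, from 7 and 8 SNPs. Its single SNP at 6614895 was read almost wholly from 1 accession, with 653 of 654 and 1 of 282 maternal counts in pair 1, while the sum over the gene's SNPs held both alleles. The gene with the highest depth ratio, at scaffold 4:13840543-13843260, had 61.0% and 73.5% in pair 1, and 67.6% and 69.7% in pair 2, and deviated by 0.10 ± 0.13 (SE, n = 4 directions, edgeR adjusted p = 0.85). That gene lay near the dosage with no skew called (edgeR adjusted p = 0.23).

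Of the 5 Cg units with the strongest skew, 2 had opposite signs in the pairs. One of them, at scaffold 4:2286405-2288937 (- strand), gave 467 of 467 and 1 of 486 maternal counts in pair 1, and 0 of 23 and 28 of 28 in pair 2. Conversely, scaffold 3:14770927-14774496 (+ strand) gave 1 of 107 and 341 of 341 in pair 1, and 32 of 32 and 0 of 25 in pair 2. Across the 140 units the accession log2 ratio had the same sign in both Cg pairs in 76, and across the 120 Co units in 107. Direction 1 of the Cg pairs involves different accessions, so the sign has no shared meaning there.

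Parental bias was called outside exons in 2 of 140 Cg units (1.43%; background 3.61% over all units, 3.74% in exons). Both were paternal, a call that 2.02% of all units and 2.06% of exonic units had. Neither lay on the paternal side in all 4 directions, against 1.55% of all units and 1.64% of exonic units. The unit at scaffold 2:2236873-2241290 (+ strand) had maternal shares of 52.0% and 33.3% in pair 1, and 5.38% and 80% in pair 2, with a deviation of -1.74 (edgeR adjusted p = 0.018). The unit at scaffold 3:3710979-3712471 (- strand) had 24.7% and 74.2%, then 57.0% and 34.9%, with a deviation of -1.14 (edgeR adjusted p = 0.026). Both were named after their values were seen. Each was on opposite sides of the dosage in the 2 directions of 1 pair and on the paternal side in both directions of the other, and no called Cg unit outside exons was paternal throughout. Without any 1 direction, and with no replicate block, 0 Cg units were called.

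In Co 25 of 120 units outside exons were called (20.8%; background 9.75% over all units, 8.5% in exons). All 25 were paternal, a call that 6.47% of all units and 4.86% of exonic units had. Of these, 20 lay within 0.5 of a deviation of -1, the value that an equal share of both parents gives. An allele with the same share in both directions gives that value too, whichever accession it belongs to. The unit at scaffold 7:13183439-13186149 (- strand), 1 of the 20, had maternal shares of 97.7% and 2.05% in pair 1, and 95.9% and 2.88% in pair 2. Of all Co units outside exons, called or not, 54 of 120 (45%) lay that close to -1, against 179 of 1190 units of both classes (15%). The 91 called exonic units were 39 maternal and 52 paternal ones, and 41 of the 52 lay that close to -1. Units on the paternal side in all 4 directions numbered 10 (8.33%, against 2.18% of all units and 1.5% of exonic units). A sum over several SNPs can mix SNPs skewed towards different accessions and so look balanced. The unit at scaffold 6:6613367-6615899, 1 of the 10, held the skewed SNP at 6614895. Such mixing was not tested. The Co calls were 11 with DESeq2, 3 with no replicate block, 10 without SNPs read from 1 accession only and 0 when any direction was left out.

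Among the called units, 1 Co gene was read almost wholly from the father outside its exons. The gene at scaffold 2:10071410-10074104 (+ strand) had 0 of 20 and 4 of 20 maternal counts in pair 1, and 0 of 45 and 1 of 54 in pair 2, at 2 SNPs. A count of 0 allows a maternal share of up to 15% of 20 and 6.67% of 45 counts. The deviation was -7.13 ± 0.92 (SE, n = 4 directions, edgeR adjusted p = 1.1e-12). With no maternal count in direction 1, its size depends on the small prior count of edgeR. It was between -7.84 and -5.33 with a direction left out, and no longer passed (edgeR adjusted p from 0.10 to 0.78).

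The exons of the same gene differed from this. Their maternal counts were 3 of 137 and 134 of 135 in pair 1, and 4 of 438 and 458 of 467 in pair 2. They followed the accession that is the father in direction 1, while the SNPs outside exons were paternal in both directions. The class difference was -7.27 ± 1.39 on the log2 scale (SE, n = 4 directions, edgeR adjusted p = 1.5e-05). It was lost with TMM factors (-6.44, adjusted p = 0.094) and with the median of each direction as the null (-6.72, adjusted p = 0.15).

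The other Co genes on the paternal side in every direction deviated less. The gene at scaffold 4:8858978-8862700 (- strand) had maternal shares of 31.0% and 63.6% in pair 1, and 29.7% and 66.1% in pair 2, with a deviation of -1.15 ± 0.26 (SE, n = 4 directions, edgeR adjusted p = 0.00022). The gene of scaffold 4:6716229-6717565 (- strand) had 57.6% and 42.4%, then 57.4% and 38.3%, with a deviation of -1.07 ± 0.23 (edgeR adjusted p = 7.8e-05). Both alternated with direction in both pairs, the first more widely, while the second stayed between 38.3% and 57.6%. At 1 SNP, the gene at scaffold 8:55843-57644 (+ strand) had 20.6%, 42.9%, 49.2% and 57.7% over directions 1 and 2 of pairs 1 and 2. A further gene at 1 SNP, scaffold 5:9489857-9492282 (+ strand), had 40.0%, 37.0%, 57.0% and 45.8%. Both stood below the dosage in all directions and neither was close to fully paternal.

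Whether the parental ratio of a gene differed between its classes was tested as an interaction. It passed in 11 of 90 Cg genes (12.2%) and 14 of 48 Co genes (29.2%), all 25 of them lower outside exons. The difference, outside exons minus exons on the log2 scale, had a median of -0.58 over all 90 Cg genes and was below 0 in 77, and of -0.49 over the 48 Co genes and below 0 in 38. Among called genes the medians were -1.10 in Cg and -1.06 in Co. With the null at each class's own median in each direction, which removes a shift shared by all genes of a class, no gene was called in either species. The counts were also 0 in Cg with DESeq2, without the block and for the deepest SNP of each gene, and 0 in Co with TMM factors.

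Some called genes set a skewed class against a balanced one. In Cg the gene at scaffold 8:5234223-5239945 (- strand) had maternal shares outside exons of 2.14% and 96.4% in pair 1, and 2.90% and 53 of 53 counts in pair 2. Its exons had 57.5% and 72.1% in pair 1, and 68.1% and 66.7% in pair 2. The difference of -1.22 ± 0.32 (SE, n = 4 directions, edgeR adjusted p = 0.0042) thus set a fully skewed class against exons near the dosage. It turned positive without direction 1 of pair 1 (3.59) or of pair 2 (0.11), in fits that also lacked the accession term of that pair.

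Other called genes carried both alleles outside exons. The gene at scaffold 7:8656560-8658735 (+ strand) had maternal shares of 51.3%, 41.0%, 53.8% and 35.3% outside exons over the 4 Cg directions, against 63.5%, 68.3%, 57.8% and 69.8% in exons (difference -1.15 ± 0.26, SE, n = 4 directions, edgeR adjusted p = 0.0010). In Co the gene at scaffold 1:15879836-15881533 (+ strand) had 51.4%, 56.5%, 54.4% and 69.1% outside exons, against 81.9%, 74.8%, 80.4% and 86.9% in exons (difference -1.61 ± 0.39, edgeR adjusted p = 0.00071). The Co gene at scaffold 1:15932271-15938697 (+ strand) had 27.9%, 47.6%, 33.0% and 64.9% outside exons, against 65.1%, 66.9%, 68.6% and 72.2% in exons (difference -1.40 ± 0.42, edgeR adjusted p = 0.0059). In these 3 genes the maternal share outside exons was below that in exons in all 4 directions. None of the 3 calls survived the loss of a direction, with differences that remained negative, between -1.87 and -0.87.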

How the data were processed

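The deposited files are 4 tables of SNP positions with whole-number counts of reads carrying the maternal or the paternal allele in 2 cross directions, per the file headers; the authors deposited these counts without normalization. Per the submitters' processing notes the tools included Bowtie2, Bismark and Trimmomatic, with no version or role. The sources used here do not give the build or how RNA reads were aligned, SNPs called and repeat runs combined. Per the labels' protocols the libraries do not mark strand, so reads of overlapping or antisense genes cannot be told apart. A further 23 columns of each file, and the leaf DNA and bisulfite samples, were not analysed here. Coordinates are those of the authors' scaffolds.

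Species was read from the table names, whose number gives pair 1 or pair 2. Kept SNPs had at least 10 counts per direction, and units at least 20. A read over several SNPs is counted at each. Summed counts at all SNPs ran from 208132 to 9508567 per direction, so Cg pair 1 is the most precise. Exact sign-flip tests used numpy 2.4.6, and Wilson intervals and correlations used scipy 1.17.1. edgeR 4.0.16 (R 4.3.3) fitted library as a block, accession within pair and parent, with an offset for the dosage on maternal columns, or the same terms per class and their difference. The SE is the absolute log2 value divided by the square root of F. Adjusted p-values are Benjamini-Hochberg over all units or genes fitted, called at 0.05. The block is the library, since both alleles share it. Scripts were tested on simulated data. DESeq2 1.42.0 was an alternative.

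Named genes were the 3 units outside exons with the most counts, up to 6 per side called on the same side in all directions, up to 5 with the strongest accession skew, up to 4 per side called for a class difference, and per table the 3 highest depth ratios and the 3 deepest SNPs; the text gives a selection. The members, lists and rules were chosen with earlier results of these data known.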

Additional observations from a re-analysis of the deposited data

Results flagged for a closer look

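Of 30 sets examined, each of 4 values except that of the 8 directions together, 2 sets of 4 held a value far from the other 3. Some sets share values and are not independent. By chance the criterion used, Dixon's 95% critical value, picks out about 1 set in 20. The median shift of an allele's share between directions, outside exons, was 6.90 points in Cg pair 1, far above the other 3 pairs at 0 to 1.15 points. Cg pair 1 is also the deepest pair. The maternal share of the Co gene on scaffold 2 at 10071410 to 10074104 was 20.0% in direction 2 of pair 1, from 4 of 20 counts, against 0%, 0% and 1.85% in the other directions.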

How the results depend on the processing

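The difference in one-accession SNPs kept its direction under all alternatives run (24.4 to 57.4 points; 40.5 to 47.1 without 1 pair), as did the added difference in shift (-29.3 to -25.4 without 1 pair). The difference in maternal share stayed negative in all alternatives and passed 0.05 in genes with both classes (-11.4), without one-accession SNPs (-7.90) and without direction 1 of Cg pair 2 (-13.9); without 1 direction it ranged from -13.9 to -8.69. It ranged from -15.2 to -3.76 in Cg and from -18.0 to -7.60 in Co.

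Counts of called units and genes moved far more, and the cause was not tested. Cg parental calls outside exons (2) were 0 with at least 50 counts, TMM, no replicate block, no accession term or the deepest SNP, and 1 with the median null, DESeq2 or no one-accession SNPs. Co parental calls (25) were 11 with DESeq2, 3 with no replicate block, 0 with no accession term, and 10 for the deepest SNP or without one-accession SNPs. Both counts were 0 without any 1 direction. Cg accession calls (114) were 215 and 41 with at least 10 and 50 counts, 5 with no replicate block, 72 for the deepest SNP and 45 and 64 without a direction of pair 1, and 0 without one of pair 2. Co accession calls (89) were 176 and 33 with at least 10 and 50 counts, and 0 without any 1 direction. Cg class differences (11) were 2 with TMM, 0 without any 1 direction, and 0 with the median null, DESeq2, no replicate block, no accession term, the deepest SNP or no one-accession SNPs. Co class differences (14) were 0 with TMM, the median null or no accession term, 1 with no replicate block or without one-accession SNPs, 2 for the deepest SNP and 0 to 5 without 1 direction. Class differences in accession skew were 83 in Cg (171 and 26 with at least 10 and 50 counts, 18 with no replicate block, 55 for the deepest SNP, 0 to 39 without 1 direction). In Co they were 30 (70 and 15 with at least 10 and 50 counts, 6, 7 or 8 without 1 direction).

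The class difference of the Cg gene on scaffold 8 at 5234223 turned to 3.59 and 0.11 without direction 1 of pair 1 and of pair 2. That of the Cg gene on scaffold 8 at 9682832 turned to 0.34 without direction 2 of pair 2. Leaving out a direction also drops the accession term of its pair. SNPs with a gene in the first gene column alone could not be singled out, since both columns hold the same gene, and SNPs in 1 listed interval were used in its place, a choice made after the data were seen. One-accession SNPs are selected by their measured share. Depth limits Cg pair 2 and Co most.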
